A study of Mus musculus with 5 samples.

Results

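The 10 genes Zeb2, Cx3cr1, Gzmm, S1pr5, Nr4a2, Tox2, Cd160, Bach2, Id3 and Slamf6 act in the choice of CD8+ T cells between effector, memory and exhausted fates. They were taken as a list of such genes, chosen with earlier results of these data known. Every deposited region of the histone mark H3K9me3 within 5 kb of their GRCm38 spans was examined. This gave 18 of 46409 regions, of which 6 lay at the 4 effector genes Zeb2, Cx3cr1, Gzmm and S1pr5 and 12 at the other 6 genes, which serve memory and exhaustion. Each of the 10 genes had at least 1 region, against 25.9% of the 21900 protein-coding genes of the gene table, and having a region is what the choice of genes took for granted. All gene assignments assume that positions are on GRCm38. The submitters' processing notes name GRCm39, but 66 regions would end beyond a GRCm39 chromosome and 0 beyond a GRCm38 chromosome. The lengths used for this came from memory, as no file here lists them.

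H3K9me3 was profiled by CUT&Tag, in which an antibody leads a Tn5 transposase to marked chromatin so that the DNA there is cut, tagged and sequenced. The cells were splenic CD8+ T cells of mice carrying the OT-I T cell receptor transgene and Cas9. All of them were electroporated with Cas9 protein loaded with a guide, at 300 pmol each, and recovered for 72 hours, so a Cas9 transgene, a guide complex and electroporation are shared by both groups. The 2 sgNTC libraries received a non-targeting guide and are labelled Prdm12-wt, and the 2 sgPrdm12 libraries received a guide against Prdm12 and are labelled Prdm12-ko. Replicate 1 of each group is labelled batch 1 and replicate 2 batch 2. The age and number of mice and the share of edited alleles are not given in the sources used here. Libraries of sgPrdm12 libraries come from treated populations and not from clones. An IgG library was not analysed here.

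H3K9me3 is a mark of silent chromatin that is laid down by methyltransferases such as SUV39H1 and SETDB1 and read by the heterochromatin protein 1 family. It is best known on repeats and on gene families kept shut, and in CD8+ T cells SUV39H1 is known to help silence memory and stem-like genes as effector cells form. PRDM12 itself is best known from pain-sensing neurons. Effector cells depend on ZEB2 and carry CX3CR1, cytotoxic granzymes and S1PR5. BACH2 and ID3 favour memory cells, while the TOX and NR4A factors and the receptors CD160 and SLAMF6 are tied to exhausted cells and their stem-like precursors.

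The libraries held between 843673 and 2353807 reads in regions, with median counts per region of 7 and 9 in sgNTC and 32 and 17 in sgPrdm12. Counts are given below as deposited, and levels as CPM, that is, reads per 1000000 of library size after TMM scaling, a scale on which the median tested region stood at a log2 fold change of -0.01. None of the 7 CD8+ T cell marker genes looked up, Cd8a, Cd8b1, Cd3d, Cd3e, Cd3g, Trac and Trbc2, had a region within 5 kb. H3K9me3 counts do not measure RNA, so the labelled cell type could not be checked by expression. Nothing in the labels says that replicates came from separate animals, and the p-values below cover only library-to-library spread, which may be technical.

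Of the 18 regions, 16 lay inside the span of their gene. The exceptions were the region at Id3, which crossed its 5′ end, and the fourth region of Slamf6, which lay past its 3′ end. At 2 genes a region reached into the promoter window of a start site listed in the RefSeq promoter table. The first region of Tox2 covered 152 bases of the promoter window of one of 5 listed Tox2 starts, and the Id3 region covered 98 bases of the window of the single listed Id3 start. Such a window was overlapped by 1.38% of all regions. Both windows, of 250 bases before to 50 after the start, are shown because they are the only places among the 10 genes where the mark was called on a listed promoter. Capitals mark the bases inside the deposited region, on the build GRCm38.p6 and the plus strand, at chr2:163203936-163204235 for Tox2 and chr4:136143572-136143871 for Id3.
Tox2: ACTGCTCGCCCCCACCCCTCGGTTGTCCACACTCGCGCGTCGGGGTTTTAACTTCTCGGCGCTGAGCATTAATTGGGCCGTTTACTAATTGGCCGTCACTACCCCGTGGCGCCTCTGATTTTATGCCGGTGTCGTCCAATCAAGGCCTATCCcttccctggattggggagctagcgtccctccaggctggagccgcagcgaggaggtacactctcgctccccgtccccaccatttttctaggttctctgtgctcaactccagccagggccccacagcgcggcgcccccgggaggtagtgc
Id3: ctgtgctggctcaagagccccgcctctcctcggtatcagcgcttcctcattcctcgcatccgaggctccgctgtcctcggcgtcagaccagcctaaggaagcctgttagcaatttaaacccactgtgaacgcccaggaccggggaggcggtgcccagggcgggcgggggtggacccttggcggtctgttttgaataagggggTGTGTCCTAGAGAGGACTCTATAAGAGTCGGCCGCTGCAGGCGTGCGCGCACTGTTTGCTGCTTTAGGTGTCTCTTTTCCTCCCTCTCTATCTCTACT
The Tox2 window held 23 CpG dinucleotides, 14 of them within the marked bases, and the Id3 window held 19, of which 5 were within the marked bases. The median of 32851 promoter windows was 7. Neither window held CACCTG or its reverse complement CAGGTG, the E-box letters known to be bound by ZEB proteins, which 20.2% of all windows hold.

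**Figure D1:**
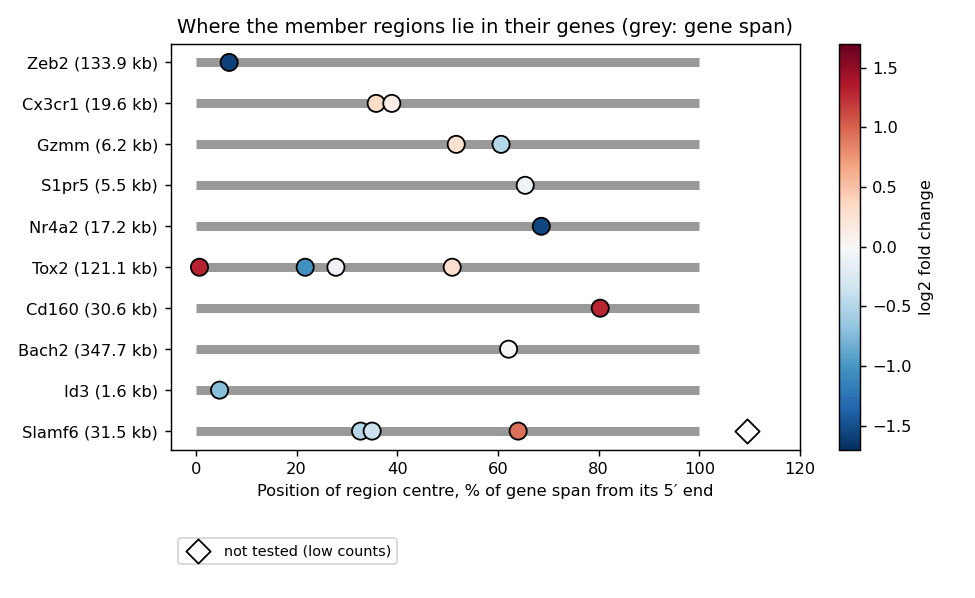
Position of the 18 regions in the spans of the 10 genes, in percent of the span from its 5′ end, coloured by log2 fold change of sgPrdm12 over sgNTC on the TMM scale, with the span length in kb beside each name. Tox2 spans changes from 1.31 at its 5′ end to -1.03 at its second region, and region 4 of Slamf6, which was not tested, lies beyond the 3′ end.

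The other regions, apart from the fourth of Slamf6, were spread over the gene bodies. The region of Zeb2 lay 8.79 kb into a span of 133.9 kb and 1.62 kb downstream of the nearest listed start. That of Bach2 lay 36.83 kb downstream of its listed start, in a span of 347.7 kb. The regions of Nr4a2, S1pr5 and Cd160 stood at 68.6%, 65.4% and 80.3% of their spans. Those of Gzmm stood at 51.7% and 60.6%, at -1.58 and -1.02 kb from the nearest listed start, that is, upstream of it. Those of Cx3cr1 stood at 35.8% and 38.9%, and the first regions of Slamf6 at 32.7%, 35.0% and 64.0%. Exon and intron bounds were not used here. A neighbouring gene lay within 5 kb of the regions of Zeb2 (the antisense gene Zeb2os), Cx3cr1 (Gm33858), Gzmm (Cdc34) and Id3 (Gm42329). None of these regions overlapped the neighbour, but with the flank of 5 kb their counts also enter its gene sum. The regions of S1pr5, Nr4a2, Tox2, Cd160, Bach2 and Slamf6 had no such neighbour. The regions were not dense domains. They had a median of 2 other regions within 50 kb and 16 within 500 kb, against 3 and 25 for all regions, and Zeb2, Nr4a2 and Bach2 had none within 50 kb. Their median width was 305.5 bp, against 282 bp for all regions, and their mean levels ran from 7.14 to 24.7 CPM around a median of 14.7, against 10.9 for all regions.

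The question put to these regions was whether H3K9me3 differed between sgPrdm12 and sgNTC cells. On the TMM scale both sgPrdm12 libraries lay below both sgNTC libraries at the effector gene Zeb2 and the exhaustion-linked gene Nr4a2. The same held at the second region of Tox2 and, narrowly, at the first of Slamf6. They lay above at the promoter region of Tox2, at Cd160 and at the third region of Slamf6. Of all tested regions 16.4% were separated downward and 20.1% upward in this way. None of the differences passed the test across all regions. Of the 18 regions 17 had enough reads to be tested, and 0 passed edgeR's quasi-likelihood test at an adjusted p under 0.05, where 0.487% of the 37390 tested regions did. At an unadjusted p under 0.05 stood 4 of the 17, namely Zeb2, Nr4a2 and the first and second regions of Tox2, against 6.42% of all tested regions. The genes were chosen with earlier results of these data known, so their share cannot be read as that of an independent list. With limma-voom 0 of 17 passed as well, and DESeq2 gave no adjusted p for any of the 17, which its own filter on mean counts left out.

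**Figure D2:**
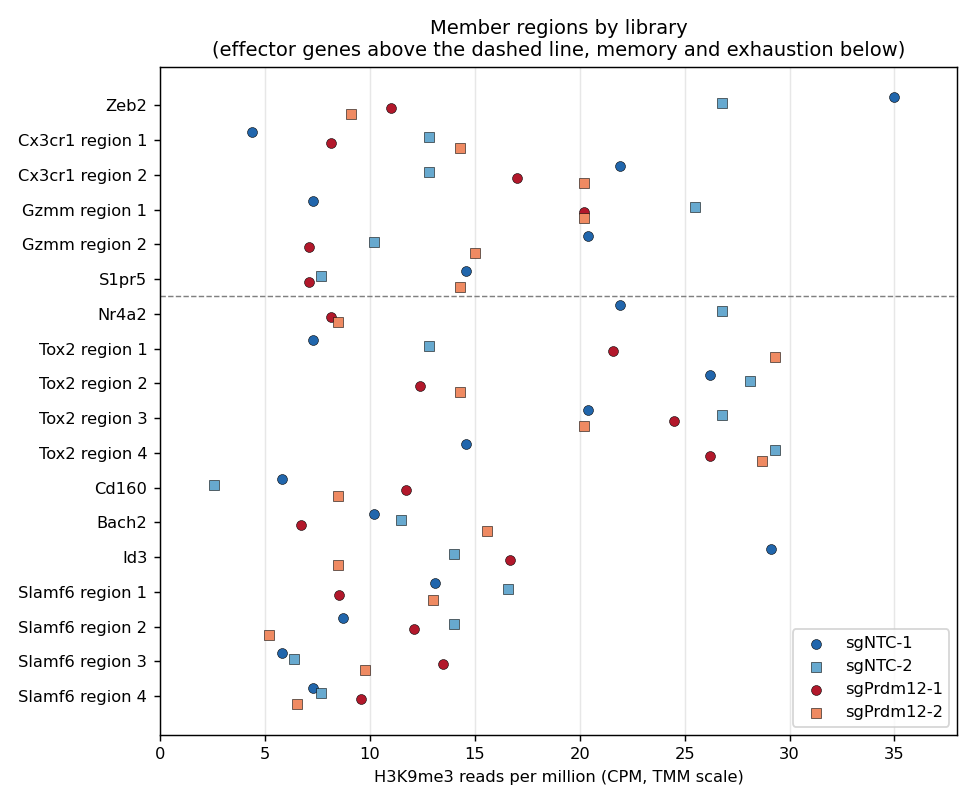
H3K9me3 level of each of the 18 regions in each library, in CPM on the TMM scale, with circles for batch 1 and squares for batch 2, offset vertically to show overlapping points. At Zeb2 and Nr4a2 both sgNTC points lie right of both sgPrdm12 points, and at the first region of Tox2 the order is the opposite.

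Zeb2, which encodes an E-box-binding repressor that drives terminal effector differentiation, had 1 region, on chromosome 2 from 45108518 to 45108787. It held 24 and 21 reads in sgNTC-1 and sgNTC-2 and 31 and 14 in sgPrdm12-1 and sgPrdm12-2. The sgPrdm12 libraries held more reads in regions in total, and the levels were 35.0 and 26.8 CPM against 11 and 9.12 CPM. Both sgPrdm12 libraries thus lay below both sgNTC libraries. The means were 30.9 ± 5.79 and 10.1 ± 1.32 CPM (SD, n = 2), a log2 fold change of -1.59 (SE 0.48, edgeR adjusted p = 0.169). Batch 1 alone gave -1.68 and batch 2 alone -1.54. Ranked within each library, which needs no scaling, the region stood at percentiles 96.9 and 93.0 of all regions in sgNTC and at 47.9 and 40.5 in sgPrdm12.

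Cx3cr1, the receptor for the chemokine fractalkine that marks circulating effector cells, had 2 regions on chromosome 9, from 120061126 to 120061433 and from 120060472 to 120060864, with the first nearer the 5′ end. The first held 3 and 10 reads in sgNTC and 23 and 22 in sgPrdm12, while 15 and 10 against 48 and 31 fell in the second. The groups overlapped in CPM at both. Their log2 fold changes were 0.33 (SE 0.73) and 0.11 (SE 0.51), each with edgeR adjusted p = 0.998.

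Gzmm, which encodes the granule protease granzyme M, had 2 regions on chromosome 10, from 79692050 to 79692440 and from 79692683 to 79692926. The first held 5 and 20 reads in sgNTC and 57 and 31 in sgPrdm12, and the second 14 and 8 against 20 and 23. The control libraries disagreed on which region was the larger. The first took 26.3% of Gzmm reads in sgNTC-1 (Wilson 95% interval 11.8 to 48.8) and 71.4% in sgNTC-2 (52.9 to 84.7), against 74.0% (63.3 to 82.5) and 57.4% (44.2 to 69.7) in sgPrdm12. The log2 fold changes of 0.27 (SE 0.51) and -0.50 (SE 0.62) turned sign between batches, from 1.35 to -0.35 and from -1.54 to 0.50, and neither passed the edgeR test (adjusted p = 0.998 and 0.994).

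S1pr5, a sphingosine-1-phosphate receptor of effector and natural killer cells, had 1 region on chromosome 9, from 21244703 to 21244951, with 10 and 6 reads in sgNTC and 20 and 22 in sgPrdm12. At 14.6 and 7.65 against 7.09 and 14.3 CPM the groups overlapped fully. On the log2 scale the difference was -0.08 (SE 0.69, edgeR adjusted p = 0.999), but -1.07 within batch 1 and 0.82 within batch 2.

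Nr4a2, an orphan nuclear receptor induced by T cell receptor signalling and linked to exhaustion, had 1 region on chromosome 2, from 57112050 to 57112380. It held 15 and 21 reads in sgNTC and 23 and 13 in sgPrdm12, or 21.9 and 26.8 CPM against 8.15 and 8.47 CPM. As at Zeb2, the sgPrdm12 libraries lay below both sgNTC libraries and close to each other. The means of 24.3 ± 3.49 and 8.31 ± 0.226 CPM (SD, n = 2) gave a log2 fold change of -1.55 (SE 0.55, edgeR adjusted p = 0.335). Within batch 1 it was -1.44 and within batch 2 -1.64. The region ranked at percentiles 87.4 and 93.0 in sgNTC and 22.5 and 36.7 in sgPrdm12.

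Tox2, which encodes an HMG-box factor related to the exhaustion regulator TOX, had 4 regions along its span on chromosome 2, and they did not move together. The promoter region, from 163203783 to 163204087, held 5 and 10 reads in sgNTC and 61 and 45 in sgPrdm12, or 7.29 and 12.8 CPM against 21.6 and 29.3 CPM, so that both sgPrdm12 libraries lay above both sgNTC libraries. On the log2 scale the difference was 1.31 (SE 0.53, edgeR adjusted p = 0.54), or 1.44 within batch 1 and 1.15 within batch 2.

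The second region of Tox2, from 163229270 to 163229464 and 26.31 kb into the gene, held 18 and 22 reads in sgNTC and 35 and 22 in sgPrdm12. At 26.2 and 28.1 CPM against 12.4 and 14.3 CPM it was lower in both sgPrdm12 libraries, with a log2 fold change of -1.03 (SE 0.48, edgeR adjusted p = 0.699), and -1.10 and -0.97 by batch. The third region, from 163236433 to 163236903, held 14 and 21 against 69 and 31 reads, and the fourth, from 163264479 to 163264995, held 10 and 23 against 74 and 44. The groups overlapped at both, with log2 fold changes of -0.07 (SE 0.44) and 0.30 (SE 0.43).

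The division of reads among the regions of Tox2 does not depend on how libraries are scaled. The promoter region took 10.6% of the Tox2 reads in sgNTC-1 (Wilson 95% interval 4.63 to 22.6) and 13.2% in sgNTC-2 (7.31 to 22.6), against 25.5% and 31.7% in the sgPrdm12 libraries (20.4 to 31.4 and 24.6 to 39.7). The second region took 38.3% (25.8 to 52.6) and 28.9% (20.0 to 40.0) against 14.6% (10.7 to 19.7) and 15.5% (10.5 to 22.3). The promoter share was thus higher, and the share of the second region lower, in both sgPrdm12 libraries than in both sgNTC libraries, but the intervals of the groups met in part at both regions, at up to 22.6 against 20.4 and down to 20.0 against 22.3. Region 4 took 21.3% and 30.3% against 31.0% and 31.0%, and the shares of region 3 overlapped. The intervals cover counting error only, and the regions were singled out after their values were seen, so this is a description. Summed over the gene the opposite moves offset each other, with 172 and 240 CPM against 209 and 233 CPM and a log2 fold change of 0.09 (SE 0.25, edgeR adjusted p = 0.971).

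**Figure D3:**
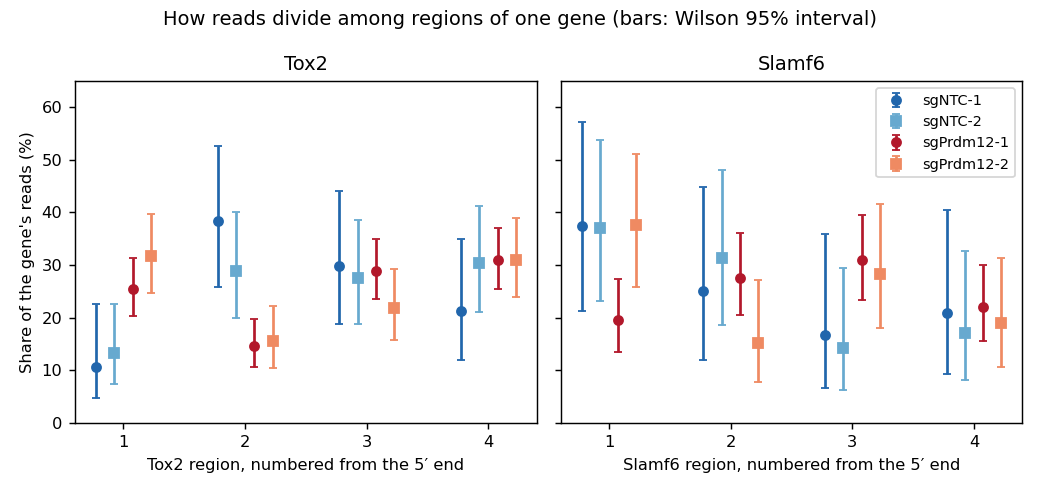
Share of the reads of Tox2 and of Slamf6 that fell in each of their 4 regions, in percent per library, with Wilson 95% intervals. In Tox2 the first region took 10.6% and 13.2% in sgNTC against 25.5% and 31.7% in sgPrdm12, and the second region ran the other way.

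Slamf6, a receptor of the SLAM family that marks stem-like exhausted cells, also had 4 regions, on chromosome 1. The first, from 171927628 to 171927869, held 9 and 13 reads in sgNTC and 24 and 20 in sgPrdm12, and the second, from 171928342 to 171928597, held 6 and 11 against 34 and 8. The third, from 171937417 to 171937832, held 4 and 5 against 38 and 15, or 5.83 and 6.38 CPM against 13.5 and 9.77 CPM. It was the only region of Slamf6 that was higher in both sgPrdm12 libraries, with a log2 fold change of 0.93 (SE 0.78, edgeR adjusted p = 0.971), and it took 16.7% and 14.3% of Slamf6 reads in sgNTC against 30.9% and 28.3% in sgPrdm12. These shares were higher in both sgPrdm12 libraries, but their Wilson 95% intervals overlapped between the groups. They ran from 6.68 to 35.9 and 6.26 to 29.4 in sgNTC, and from 23.4 to 39.5 and 18.0 to 41.6 in sgPrdm12. The intervals at Tox2 overlapped in part.

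The first 2 regions of Slamf6 stood at -0.49 (SE 0.62) and -0.36 (SE 0.71). At the first the groups were only just apart, with the lowest sgNTC library at 13.1 CPM and the highest sgPrdm12 library at 13.0 CPM, and at the second they overlapped. The fourth, from 171951844 to 171952087, held 5 and 6 against 27 and 10 reads and was left out of the test by the filter on low counts. Over the gene as a whole the log2 fold change was -0.02 (SE 0.33).

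Cd160, an immunoglobulin-family receptor found on exhausted and cytotoxic cells, had 1 region on chromosome 3, from 96804627 to 96804970. Its counts were among the lowest in sgNTC, with 4 and 2 reads against 33 and 13 in sgPrdm12, or 5.83 and 2.55 CPM against 11.7 and 8.47 CPM. Both sgPrdm12 libraries were higher, but the log2 fold change of 1.29 carried an SE of 0.98 (edgeR adjusted p = 0.954).

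Bach2, a repressor that holds back the effector programme in favour of memory, had a single region in its long span on chromosome 4, from 32454081 to 32454450. With 7 and 9 reads in sgNTC and 19 and 24 in sgPrdm12, or 10.2 and 11.5 CPM against 6.73 and 15.6 CPM, the groups overlapped, and the log2 fold change was 0.00 (SE 0.64). The value was -0.66 in batch 1 and 0.40 in batch 2.

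Id3, an inhibitor of E proteins that marks memory precursors, had its region over the start site shown above, on chromosome 4 from 136143774 to 136144019. It held 20 and 11 reads in sgNTC and 47 and 13 in sgPrdm12, or 29.1 and 14.0 CPM against 16.7 and 8.47 CPM. The groups overlapped, since sgPrdm12-1 lay above sgNTC-2, while the log2 fold change was -0.83 in batch 1 and -0.74 in batch 2. The pooled value was -0.72 (SE 0.53, edgeR adjusted p = 0.945). On the TMM scale the regions in the promoter windows of Tox2 and Id3 thus lay on opposite sides of 0, and neither passed. With the authors' constants both lay above 0, at 2.32 and 0.30.

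**Figure D4:**
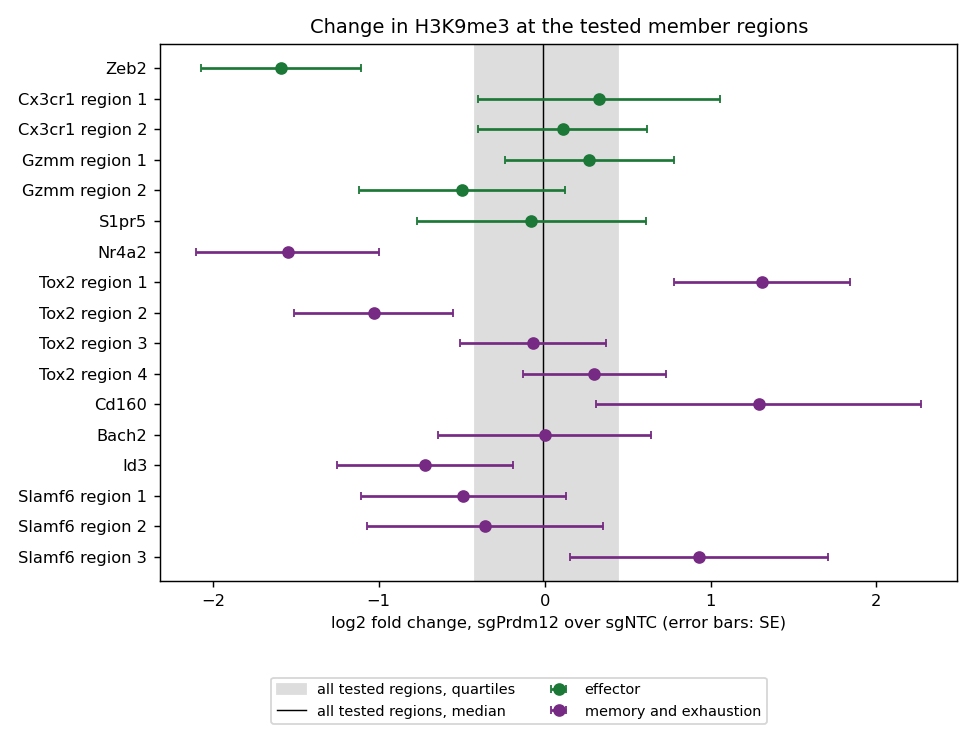
Log2 fold change of sgPrdm12 over sgNTC at the 17 tested regions on the TMM scale, with the SE from edgeR as bars, over the quartiles (-0.42 to 0.44) and median (-0.01) of all 37390 tested regions. Zeb2 and Nr4a2 lie lowest, at -1.59 and -1.55, and the first region of Tox2 and Cd160 highest, at 1.31 and 1.29.

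Regions of both classes, effector on one side and memory and exhaustion on the other, lay on both sides of 0. The 6 effector regions had a median log2 fold change of 0.01 and a range of -1.59 to 0.33, with 3 above 0 and 3 below. The 11 tested memory and exhaustion regions had a median of -0.07 and a range of -1.55 to 1.31, with 4 above 0 and 7 below. The median of all tested regions was -0.01. By batch the effector median was -0.73 and 0.31 and the memory and exhaustion median 0.22 and -0.37, so the order of the classes was opposite in the batches. The effector regions took 37.8% (Wilson 95% interval 31.1 to 44.9) and 32.8% (27.0 to 39.1) of the reads of all 18 regions in sgNTC, and 29.1% (25.9 to 32.7) and 35.7% (31.1 to 40.5) in sgPrdm12, with overlap between the groups. No test over the members was made, because they were chosen with earlier results of these data known.

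In counts, both sgPrdm12 libraries lay above both sgNTC libraries on the TMM scale at 3 of the 17 tested regions, against 20.1% of all tested regions. They lay below at 4 of the 17, namely Zeb2, Nr4a2, the second region of Tox2 and the first of Slamf6, against 16.4%. With 3 above, 4 below and 10 overlapping, the shares are near those of the whole table. Per kb of region, the densest in sgNTC were the second region of Tox2, at a mean of 140 CPM per kb, and Zeb2, at 115 CPM per kb. In sgPrdm12 these stood at 68.9 and 37.4 CPM per kb, and the promoter region of Tox2 was the densest, at 83.8 CPM per kb against 33.0 CPM per kb in sgNTC.

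Summed over all regions of a gene, 0 of the 10 genes passed (edgeR), against 2.79% of 7775 tested genes. At an unadjusted p under 0.05 stood 2 of the 10, Zeb2 and Nr4a2, against 11.9%. The limit set by the choice of the genes holds here too. With limma-voom 0 passed, and DESeq2 gave an adjusted p for 4 of the 10, of which 0 passed. Zeb2 was just short of the threshold, at -1.60 (SE 0.50, edgeR adjusted p = 0.052), and Nr4a2 stood at -1.55 (SE 0.58, edgeR adjusted p = 0.149). Each of these has 1 region, so the gene value rests on the same reads as the region. For Zeb2 the region gave an unadjusted p of 0.00147 and the gene 0.00149, and the adjustment was over 37390 regions in the first case and 7775 genes in the second. Without the filter on low counts Zeb2 passed (edgeR adjusted p = 0.0479), among 149 genes of the whole table that were lower there. Over the other alternatives that kept all libraries and gave Zeb2 an adjusted p, that p ran from 0.0508 to 0.365.

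The sign of several values depended on the scale. The median tested region stood at 0.56 with total counts and at 1.00 with the authors' constants, so some values are also given relative to it. TMM places the median region near 0 by its design. Whether the shift of the whole table on the other scales reflects the mark or the scaling was not tested. Zeb2 stood at -0.57 and Nr4a2 at -0.53 with the authors' constants, or -1.57 and -1.53 relative to the median region. On that scale 3 of the 17 regions passed, all higher, against 20.8% of all tested regions. They were regions 1 and 4 of Tox2 (edgeR adjusted p = 0.000373 and 0.0173) and region 1 of Gzmm (edgeR adjusted p = 0.0436). The promoter region of Tox2 also passed with total counts (edgeR adjusted p = 0.0224), the only 1 of the 17 to do so, against 2.50% of all tested regions that were higher there. Summed by gene, 5 of the 10 were higher with the authors' constants, against 44.3% of all tested genes. They were Slamf6, Tox2, Cd160, Cx3cr1 and Gzmm. Reads in the 18 regions made up 22.3 and 21.6 per 100000 of all region reads in sgNTC and 29.0 and 28.7 in sgPrdm12. They were thus a larger part of the region reads of both sgPrdm12 libraries. This share is the total-count scale, on which the median region was higher too.

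**Figure D5:**
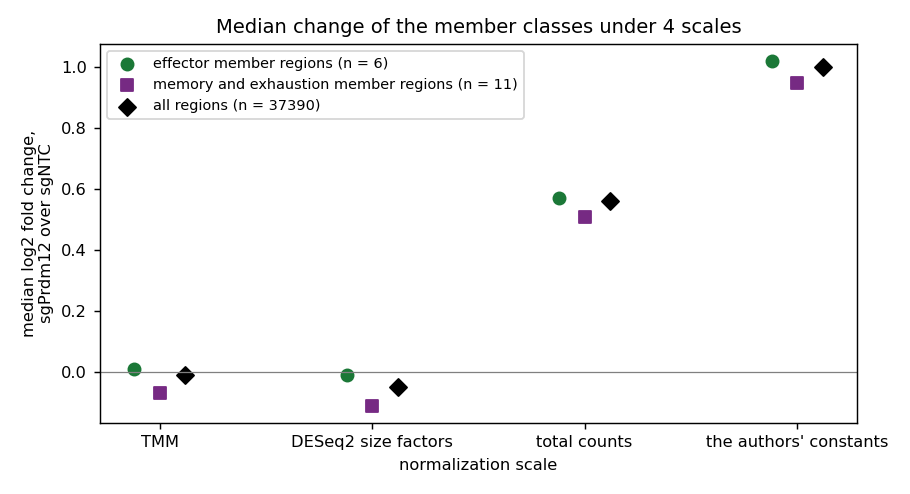
Median log2 fold change of the 6 effector and 11 memory and exhaustion regions and of all 37390 tested regions under 4 ways of scaling the libraries. The medians of both classes move with that of all regions, from about 0 with TMM to 1.02, 0.95 and 1.00 with the authors' constants.

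Most other genes of these programmes had no region within 5 kb. Of 25 further effector genes, among them Tbx21, Prdm1, Gzmb, Prf1 and Ifng, 5 had one. Of these, the neighbouring chemokine genes Ccl3 and Ccl4 share 1 region, with 7 and 3 reads in sgNTC and 28 and 7 in sgPrdm12, so they are not separate evidence. Of 24 further naive and memory genes, among them Tcf7, Lef1 and Ccr7, 6 had one. Of 21 further exhaustion genes, among them Pdcd1, Havcr2, Lag3, Ctla4 and Tox, 0 had one. The shares of 20%, 25% and 0% stand beside 25.9% of all protein-coding genes, and no test was made. A gene without a region is one where none was listed, which does not measure its H3K9me3.

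No gene of these lists passed over all genes tested (edgeR, 0 of 5 tested effector genes, with Ccl3 and Ccl4 counted apart, and 0 of 5 tested naive and memory genes), and 0 and 1 had an unadjusted p under 0.05, the latter Il6ra. With limma-voom 0 passed as well. With DESeq2 0 passed, but it gave no adjusted p for some of these genes, such as Il2ra and Itgb1. The effector genes with the smallest p were Rora, a nuclear receptor of innate and helper lymphocytes, at -0.48, Il2ra, the high-affinity interleukin-2 receptor chain, at 0.55, and Itgb1, an integrin chain, at -0.25. Those of the naive and memory list were Il6ra, an interleukin-6 receptor chain, with 12 and 20 reads against 112 and 75 over 4 regions and a value of 1.02 (SE 0.38, edgeR adjusted p = 0.15), Il7r, the interleukin-7 receptor of long-lived T cells, at 0.85, and Stat3, at -0.50. Both sgPrdm12 libraries lay above both sgNTC libraries at Il6ra, Il7r, Zeb1 and Il2rb. These are 4 of the 5 tested genes of that list, against 21.1% of all tested genes. Of the 5 tested effector genes 1 lay above in this way (Il2ra), 1 below (Rora) and 3 overlapped. The lists were chosen with earlier results of these data known, so these shares are a description only. At Zeb1 and Il2rb the unadjusted edgeR p was 0.286 and 0.382. With total counts Il6ra and Il7r passed, 2 of the 10 tested genes of both lists, against 15.1% of all tested genes that were higher there. With the authors' constants they and Il2ra, Zeb1 and Il2rb passed, 5 of the 10, against 44.3% of all tested genes.

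Markers of other cells that a spleen preparation can hold were looked up in the same way. A region lay within 5 kb of 1 of 2 CD4 T cell genes, 0 of 5 B cell genes, 1 of 5 myeloid genes, 1 of 4 natural killer cell genes and 1 of 4 erythroid genes. These were Cd4, Adgre1, Klrb1c and Hbb-bs. Whether other cells contribute to any value above was not tested.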

How the data were processed

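The authors deposited 1 table of regions with raw read counts and a normalized signal for 4 libraries. Per the file headers the counts are read counts per region, and the deposited normalized signal equals the count times 1 constant per library (1.29 and 1.09 for sgNTC, 0.638 and 1.12 for sgPrdm12) of unstated origin. DiffBind, MACS2, Bowtie2 and Trimmomatic and the build GRCm39 are named in the submitters' processing notes, with no versions. By chromosome lengths recalled rather than read from a file, 66 regions overrun a GRCm39 chromosome and 0 overrun a GRCm38 chromosome, so positions were read as GRCm38, and whether starts count from 0 or 1 is unknown.

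Regions were joined to RefSeq gene spans with a flank of 5 kb, and counts were also summed per protein-coding or lncRNA gene. edgeR 4.0.16 (R 4.3.3) gave quasi-likelihood tests over the whole table, with TMM, filterByExpr, no block and Benjamini-Hochberg adjustment at 0.05. The SE was taken from the fold change and the quasi-F value (size of log2 change over root F), and batch values are log2 ratios of 1 library pair with a pseudocount of 0.5. limma 3.58.1 and DESeq2 1.42.0 were alternatives, and the fit was tested on simulated data. The replicate number follows the labelled batch and so pairs the libraries. The replicate differences of the 2 groups correlated at 0.0038 over tested regions. All 10 genes and their regions were named, and of each wider list every gene that passed and the 3 tested genes with the smallest p, as well as neighbours sharing a region. Zeb1 and Il2rb and the genes given as examples without a region were named outside this rule. The members and lists were chosen with earlier results of these data known. Sequences are from RefSeq, GRCm38.p6, and 2 of the 10 genes had a promoter window that a region overlapped.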

Additional observations from a re-analysis of the deposited data

How the results depend on the processing

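With few reads per region and 2 libraries a group, only large differences could pass, and 1 library could turn a small value. Across the alternatives, 345 values of single regions and genes were counted as unchanged. They kept their direction and, where an adjusted p was given, their side of the threshold. DESeq2's Wald test gave no adjusted p for any tested region of the chosen genes and for several genes. Those values were compared by direction only. A further 14 newly passed in the same direction and 44 turned sign. Of these 44, 2 also newly passed (Gzmm and Slamf6 as genes, with the authors' constants). Among counts and medians, 107 stayed within the spread or within 1.5 times and 39 moved. Zeb2, Nr4a2, Cd160 and the first region of Tox2 kept their sign under every alternative that gave a value. The cause of the changes was not tested, except that a scale shifts all values together.

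Scales. With DESeq2 size factors 11 regions were higher over the whole table. With total counts 936 regions were higher and 79 lower, and 1176 and 70 genes, with 1 of the 18 regions and 2 naive and memory genes passing and a memory and exhaustion median of 0.51. The effector median moved alike, to 0.57, but was counted as within its wider batch spread. The median of all tested regions was 0.56 there. Signs turned for Gzmm region 2 (0.04) and gene (0.53), S1pr5 region (0.46) and gene (0.47), Slamf6 regions 1 and 2 (0.07, 0.23) and gene (0.56), Tox2 region 3 (0.51), Itgb1 (0.36), Rora (0.10) and Stat3 (0.07). With the authors' constants 7765 regions were higher and 52 lower, and 3446 and 32 genes, with 3 of the 18 regions, 5 of the 10 genes, 1 effector and 4 naive and memory genes passing and medians of 1.02 for effector and 0.95 for memory and exhaustion regions. Signs turned for Gzmm region 2 (0.50) and gene (0.97), S1pr5 region (0.92) and gene (0.92), Slamf6 regions 1 and 2 (0.52, 0.66) and gene (1.00), Tox2 region 3 (0.95), Id3 (0.30 as a region and as a gene), Itgb1 (0.78), Rora (0.54) and Stat3 (0.51).

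Tests and filters. The replicate block left 52 genes higher, against 84 without it, and changed the call of none of the 10 genes or their regions, with Zeb2 at -1.61 (edgeR adjusted p = 0.0787 as a gene). DESeq2's Wald test gave 9 regions higher and 11 and 60 genes higher and lower, and no adjusted p for the 18 regions. limma-voom gave 1 region and 19 genes higher. At a threshold of 0.1, 127 genes were higher and 187 lower over the whole table, and 1 of the 10, Zeb2, was among the lower. With no filter Zeb2 was lower too, where 76 genes were higher and 149 lower over the whole table. With spans without flanks 82 genes were lower.

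Left-out libraries. Regions higher ranged from 6 to 55 and lower from 29 to 223, and genes from 25 to 87 and 80 to 154, while 0 of the 18 regions, 0 of the 10 genes and 0 of the wider lists passed. The effector median ranged from -0.44 to 0.19 and the memory and exhaustion median from -0.27 to 0.03. Values that turned sign when some library was left out ranged from -0.26 to 1.25 and -0.33 to 0.48 for Cx3cr1 regions 1 and 2, -0.40 to 1.37 and -1.17 to 0.03 for Gzmm regions 1 and 2, -0.71 to 0.41 for the S1pr5 region and -0.32 to 0.04 and -0.16 to 0.82 for Tox2 regions 3 and 4. As genes they ranged from -0.03 to 0.42 for Cx3cr1, -0.22 to 0.15 for Gzmm, -0.62 to 0.45 for S1pr5, -0.14 to 0.33 for Tox2, -0.20 to 0.13 for Slamf6, -0.88 to 0.87 for Itgb1 and -0.91 to 0.02 for Stat3. Bach2, counted as keeping its direction although it stood at 0.00, ranged from -0.12 to 0.46 as a region and from -0.08 to 0.53 as a gene. The regions of Cd160 without sgPrdm12-1 and of Bach2 without sgPrdm12-2 fell below the filter and gave no value.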
